A study of Mus musculus with 27 samples.

Results

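The 9 endothelial genes Tek, Tie1, Flt1, Eng, Cdh5, Cldn5, Pecam1, Cd34 and Emcn were followed through the differentiation of 3 mouse pluripotent cell lines. They were chosen by name, and every probe set whose single gene symbol was one of the 9 was read, which gave 14 probe sets of the 34945 with 1 symbol and 9 of 18193 genes. R1 is an embryonic stem cell line, and H9 and 19BL are induced pluripotent lines made with 3 (3F) and 4 (4F) reprogramming factors. At day 0 the cells were undifferentiated, on mitomycin-inactivated feeder cells with LIF, a cytokine that keeps mouse stem cells in that state. At day 5 and day 11 they were embryoid bodies, cell aggregates in medium with 20% serum and without LIF. All 9 groups held 3 Affymetrix arrays that the labels call biological replicates, 27 in all. The labels give 1 line of each origin, so a difference between lines cannot be told apart from a difference between numbers of factors. In the main fit, p-values rest on the spread between replicates within groups, pooled for each gene over all 9 groups. Levels are the deposited log2 RMA signals. Changes are differences of log2 levels, and ± gives their standard error in limma. The words rose, fell, higher and lower in counts are kept for genes that passed both an adjusted p of 0.05 and the 2-fold threshold. The number of arrays limits the precision, and signals of different probe sets were not set against each other.

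Endothelial cells line all blood vessels and arise in embryoid bodies from mesoderm that carries the VEGF receptor Kdr. Tek (Tie2) is the receptor of the angiopoietins and Tie1 its partner receptor. Flt1 is VEGF receptor 1, which binds VEGF-A tightly and limits signalling through Kdr, and Eng (endoglin) is a co-receptor for ligands of the TGF-beta family. Cdh5 (VE-cadherin) and Cldn5 (claudin-5) hold neighbouring endothelial cells together, Pecam1 (CD31) is an adhesion molecule at the same contacts, and Cd34 and Emcn (endomucin) are sialomucins of the cell surface. Several of them are also made outside vessels: Pecam1 by mouse embryonic stem cells and blood cells, and Cd34, Tek and Eng by blood progenitors. In a bulk sample, fewer cells of a type and less RNA per cell cannot be told apart.

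The bases before the start site are shown for Tie1, Cd34, Cldn5 and Eng. Of the genes with a promoter window, these 4 had no overlap of those bases with the annotated gene body. Among them, Tie1, Cd34 and Cldn5 were higher at day 11 in at least 1 line. The main Eng probe set stayed within a narrow range in all groups. RefSeq promoter windows (GRCm38.p6, 250 bases before to 50 after the start) were found for 7 of the 9 genes, Tek, Tie1, Flt1, Eng, Cldn5, Cd34 and Emcn. The sequences give the 250 bases before the start, 5′ to 3′ on the gene's strand, and capitals mark TTCCTG, which is the ETS core CAGGAA read on the other strand. They come from chr4:118489850-118490099 on the minus strand for Tie1, and from the plus strand at chr1:194938571-194938820 for Cd34, chr16:18776597-18776846 for Cldn5 and chr2:32646345-32646594 for Eng.
Tie1: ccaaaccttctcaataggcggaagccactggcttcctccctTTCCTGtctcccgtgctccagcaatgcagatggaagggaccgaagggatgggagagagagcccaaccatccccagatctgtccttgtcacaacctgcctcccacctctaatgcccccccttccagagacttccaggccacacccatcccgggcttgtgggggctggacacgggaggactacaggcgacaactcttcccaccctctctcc
Cd34: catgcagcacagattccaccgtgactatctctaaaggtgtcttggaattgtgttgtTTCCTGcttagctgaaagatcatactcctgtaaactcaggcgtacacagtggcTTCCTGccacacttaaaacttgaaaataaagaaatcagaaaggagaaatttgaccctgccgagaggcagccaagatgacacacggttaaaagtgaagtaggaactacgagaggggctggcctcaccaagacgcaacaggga
Cldn5: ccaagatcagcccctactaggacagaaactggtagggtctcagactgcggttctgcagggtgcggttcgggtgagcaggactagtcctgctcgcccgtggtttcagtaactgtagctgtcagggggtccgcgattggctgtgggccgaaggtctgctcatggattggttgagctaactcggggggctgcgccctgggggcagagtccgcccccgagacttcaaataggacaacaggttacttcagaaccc
Eng: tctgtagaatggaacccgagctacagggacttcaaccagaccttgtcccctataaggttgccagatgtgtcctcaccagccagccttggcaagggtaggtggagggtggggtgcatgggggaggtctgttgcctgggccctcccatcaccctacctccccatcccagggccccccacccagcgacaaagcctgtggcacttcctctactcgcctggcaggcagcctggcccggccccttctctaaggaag
ETS factors are regulators of many endothelial genes, and their core was searched as CAGGAA and CCGGAA on both strands. CAGGAA was in the 300-base window of 5 of the 7 genes, against 30.6% of 32851 windows of the same length, with 2 sites each in Tek, Cd34 and Emcn and 1 each in Tie1 and Eng. The Eng site began 6 bases into the transcript, outside the bases shown, and Cldn5 and Flt1 had none. Of the other motifs, the GATA site AGATAA was in 1 of the 7 windows (Tek, 11.2% of all windows), TATAAA in 1 (Flt1, 13.6%), and CCGGAA (14.9%) and the SOX site ACAATG (12.6%) in 0. A match in so short a motif describes the letters only.

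The arrays were comparable in overall level, with medians of 5.91 to 6.103, and 0 pairs were identical. At day 0 all arrays carried the pluripotent state by its markers, with a mean level over 7 markers of 12.66 to 13.36. An index of 3' bias was the 3' minus 5' signal of the Actb and Gapdh control probe sets. A higher value means less complete labelled RNA. The index was highest in 4F at day 11, at 2.69 ± 0.23 (SD, n = 3). R1 stood at 1.94 ± 0.20 and 3F at 1.55 ± 0.23 on that day. Its mean lay between 1.09 and 1.66 in the groups of day 0 and day 5. Its range in 4F at day 11, 2.44 to 2.89, lay above that of R1 (1.75 to 2.16) and of 3F (1.31 to 1.76). Within day 11 the index therefore cannot be told apart from the difference of 4F from the other lines, and differences of the 9 genes at day 11 are given without and with it.

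From day 0 to day 11 endothelial genes rose in R1 and 3F beyond the share of all genes. In 4F none rose and Tek fell, counts near the shares of all genes. The 4F calls depended on the fit: with the index, described further on, Cdh5 rose in 4F by 2.34 (adjusted p = 0.00573) and Tek stood at 2.39 (adjusted p = 0.0518). The fall of Tek was also lost without any of 4 single arrays. In R1 Tek, Cd34, Cldn5 and Cdh5 rose, 4 of 9 genes against 11.4% of all genes called higher, and 0 fell against 12.2%. In 3F the same 4 genes and Tie1 rose, 5 of 9 against 7.55%, and 0 fell against 16%. In 4F 0 rose against 6.72%, and 1 fell against 14.1%, both near the background. The median change of the 9 was 0.91 in R1, 1.17 in 3F and -0.23 in 4F, beside medians over all genes of -0.04, 0.01 and -0.11. The ranges of day 0 and day 11 did not overlap for 6 of the 9 genes in R1 (52.7% of all genes), 7 in 3F (49.9%) and 5 in 4F (54.9%). In 4F this share was near the background. In R1 and 3F it was only somewhat above, a difference that was not tested, and Pecam1 in R1 lay below its day 0 range.

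Most rises lay between day 5 and day 11. From day 5 to day 11 Tek, Cd34, Cldn5 and Cdh5 rose in R1 (4 of 9, background 7.1% higher and 4.53% lower), and these 4 and Tie1 rose in 3F (5 of 9, background 6.16% and 10.8%). In 4F 0 were called over the same interval (background 6.66% and 9.16%), with 2 at an unadjusted p under 0.05 in limma. From day 0 to day 5 only Flt1 rose in R1 (background 6.62% higher and 8.1% lower), only Cd34 fell in 3F (background 5.04% and 7.4%), and 0 were called in 4F (background 2.25% and 4.82%), with 1 at an unadjusted p under 0.05.

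Between lines, the calls among the 9 lay in comparisons of 4F with the other lines at day 5 and day 11. At day 0, and between 3F and R1 on every day, 0 of 9 was near the small shares of all genes. At day 0 limma called 0 of 9 in 3F against R1 (background 2.21% higher and 0.879% lower), 0 in 4F against R1 (0.643% and 0.478%) and 0 in 4F against 3F (0.885% and 1.09%), with 2, 0 and 1 at an unadjusted p under 0.05. At day 5 limma called 0 in 3F against R1 (0.22% and 0.154%, 0 at an unadjusted p under 0.05). Cd34 was higher and Flt1 lower in 4F than in R1 (1 and 1 of 9, background 2.31% and 3.14%) and than in 3F (1 and 1 of 9, background 2.91% and 4.57%). At day 11 Tek, Cd34 and Cldn5 were lower in 4F than in R1 (3 of 9, background 5.92%, and 0 higher, 2.39%), and these and Tie1 were lower than in 3F (4 of 9, background 4.91%, and 0 higher, 5.12%). Between 3F and R1 at day 11 limma called 0 (0.231% and 0.786%), with 1 at an unadjusted p under 0.05. Groups at day 11 did not overlap for 6 of the 9 genes in 4F against R1 and for 6 in 4F against 3F, against 38.9% and 29.6% of all genes.

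How the lines differed in the change from day 0 to day 11 was tested directly. The change was lower in 4F than in R1 for Tek, Cd34 and Cldn5 (3 of 9, background 7.03%, and 0 higher, 2.47%), and lower than in 3F for these, Tie1 and Pecam1 (5 of 9, background 3.01%, and 0 higher, 3.41%). Between 3F and R1 0 of 9 differed in that change (0.275% higher and 1.22% lower, 3 at an unadjusted p under 0.05 in limma). For the change from day 0 to day 5, Flt1 was lower in 4F than in R1 (1 of 9, background 2.06%, and 0 higher, 1.58%), and limma called 0 in 4F against 3F (1.97% and 1.51%, 3 at an unadjusted p under 0.05) and 0 in 3F against R1 (0.181% and 0.192%, 2 at an unadjusted p under 0.05). Comparisons that share a group share its arrays, so these counts are not independent of each other.

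**Figure D1:**
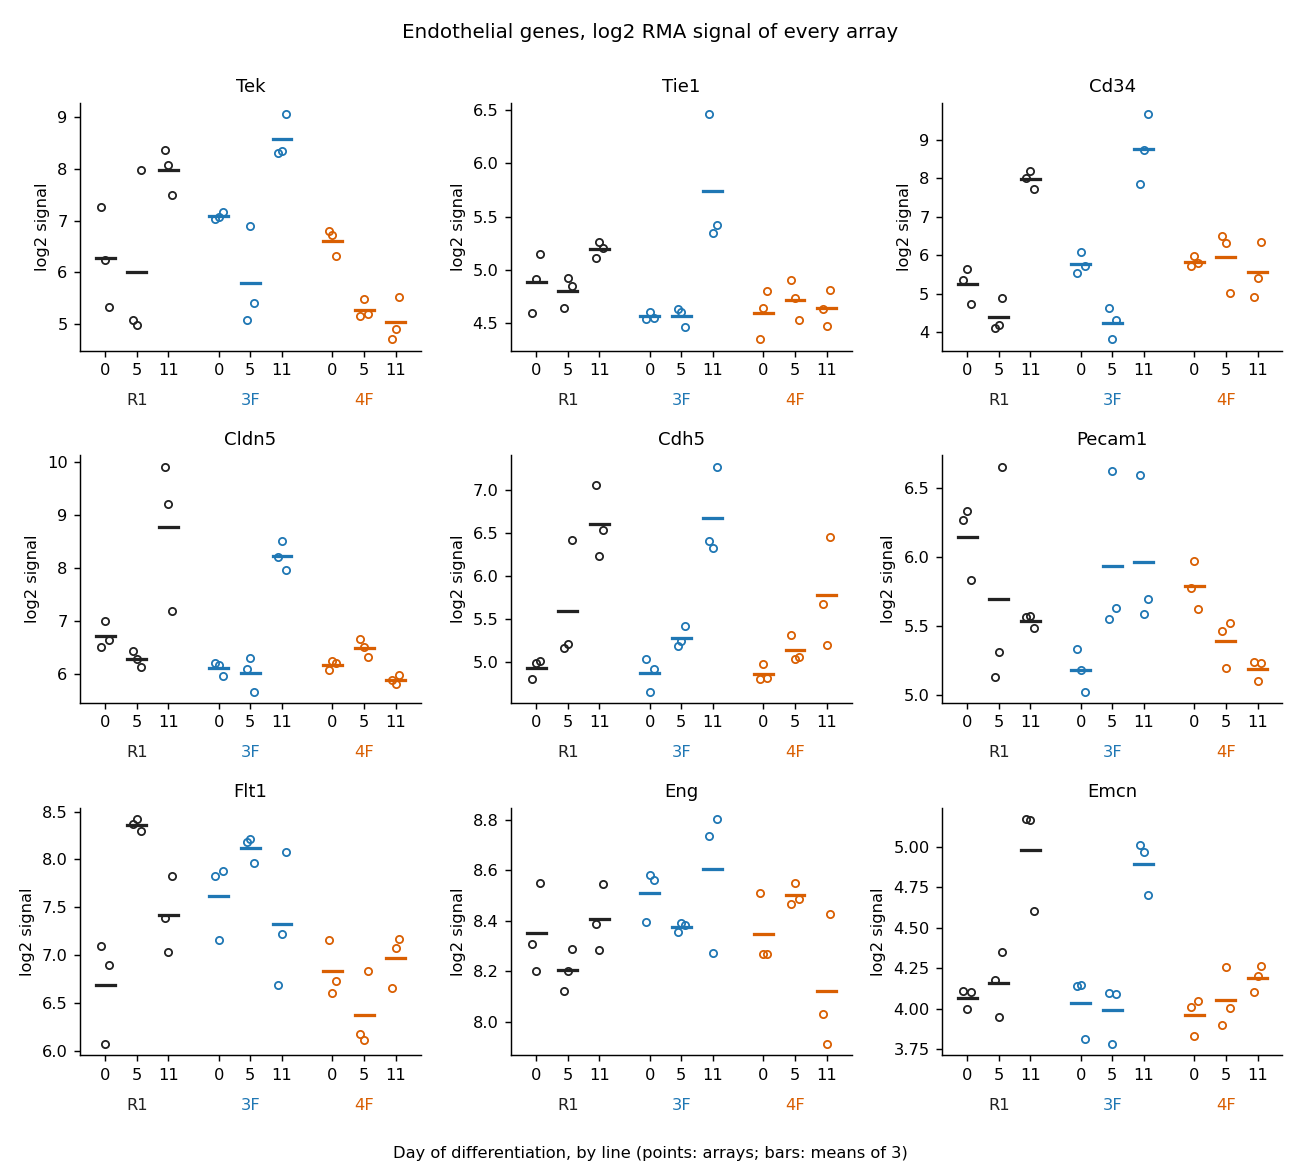
Log2 RMA level of each of the 9 endothelial genes on each array (points) by line and day, with bars at the mean of 3 arrays. Cd34 at day 11 lies between 7.73 and 9.66 in R1 and 3F and between 4.92 and 6.35 in 4F, while Eng stays between 7.91 and 8.80 on all 27 arrays.

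Tek, the angiopoietin receptor, was high at day 11 in R1 and 3F and low in 4F. R1 levels of Tek were 7.26, 6.23 and 5.32 at day 0, 5.07, 4.99 and 7.98 at day 5, and 8.37, 8.08 and 7.49 at day 11. 3F levels of Tek were 7.03, 7.07 and 7.16 at day 0, 5.08, 6.90 and 5.41 at day 5, and 8.31, 8.35 and 9.05 at day 11. 4F levels of Tek were 6.79, 6.73 and 6.31 at day 0, 5.15, 5.49 and 5.19 at day 5, and 4.70, 4.90 and 5.53 at day 11. The 6 arrays of R1 and 3F at day 11 lay above all 3 of 4F, and above all but 1 of the other 18 arrays of the series, replicate 3 of R1 at day 5. Tek rose from day 0 to day 11 in R1 by 1.71 ± 0.58 (3.27-fold, adjusted p = 0.0185) and in 3F by 1.49 ± 0.58 (2.80-fold, adjusted p = 0.0382), and fell by 1.56 ± 0.58 in 4F (adjusted p = 0.0324). Each of these calls was lost without some single arrays. The rise in R1 was lost without day 0 replicate 3 or day 11 replicate 1 (1.24 to 1.52, adjusted p up to 0.121), and that in 3F without any of 5 of its 6 arrays (adjusted p up to 0.115). The fall in 4F was lost without replicate 1 or 2 of either day (adjusted p up to 0.104). Between lines at day 11 Tek was lower in 4F than in R1 (-2.94 ± 0.58, 7.66-fold, adjusted p = 0.000745) and than in 3F (-3.53 ± 0.58, 11.5-fold, adjusted p = 0.000114). The difference between 3F and R1 was 0.59 (adjusted p = 0.59). The change from day 0 differed by -3.27 ± 0.82 between 4F and R1 (adjusted p = 0.00992) and by -3.05 between 4F and 3F (adjusted p = 0.0206, or 0.0543 without 4F day 11 replicate 1).

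The path of Tek between day 0 and day 11 was not steady. Its signal was above 6.50, the 40th percentile of all gene values and the level called dim here, on 6 of 9 arrays at day 0, 2 of 9 at day 5 and 6 of 9 at day 11. Between day 0 and day 5 the fitted change was -0.26 in R1 (adjusted p = 0.789), -1.29 in 3F (adjusted p = 0.102) and -1.33 in 4F (adjusted p = 0.108). At day 5, replicate 3 of R1 (7.98) and replicate 2 of 3F (6.90) stood above the other pair of their group. Without that array Tek fell by 1.24 in R1 (adjusted p = 0.0448) and by 1.84 in 3F (adjusted p = 0.0295). From day 5 to day 11 Tek rose by 1.97 in R1 (3.92-fold, adjusted p = 0.0129, lost without any of 3 arrays at adjusted p up to 0.0982) and by 2.78 in 3F (6.85-fold, adjusted p = 0.000521).

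Tie1, the partner receptor of Tek, was above the dim level on 0 of 27 arrays and changed at day 11 in 3F. R1 levels of Tie1 were 4.60, 4.92 and 5.15 at day 0, 4.65, 4.92 and 4.85 at day 5, and 5.11, 5.27 and 5.21 at day 11. 3F levels of Tie1 were 4.54, 4.61 and 4.55 at day 0, 4.64, 4.60 and 4.47 at day 5, and 6.46, 5.34 and 5.42 at day 11. 4F levels of Tie1 were 4.35, 4.64 and 4.81 at day 0, 4.90, 4.74 and 4.53 at day 5, and 4.64, 4.48 and 4.81 at day 11. The 3 arrays of 3F at day 11 were the 3 highest of all, and replicate 1 stood apart above the other pair. Tie1 rose in 3F from day 0 to day 11 by 1.17 ± 0.21 (2.25-fold, adjusted p = 5.69e-05) and was lower in 4F than in 3F at day 11 (-1.10, 2.14-fold, adjusted p = 0.000432). Without 3F day 11 replicate 1 these were 0.81 and -0.74, under 2-fold. The change in R1 was 0.31 (adjusted p = 0.25) and in 4F 0.04.

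The ligands and the phosphatase of these receptors gave another order. Angpt1, the activating ligand of Tek, rose from day 0 to day 11 in all 3 lines, by 4.40 ± 0.32 in R1 (21.1-fold), 3.58 in 3F (11.9-fold) and 2.52 in 4F (5.74-fold). Its levels at day 11 were 9.19, 9.32 and 9.15 in R1, 8.65, 9.09 and 9.24 in 3F, and 7.19, 7.40 and 7.92 in 4F, without overlap between 4F and the others. It was lower in 4F than in R1 (-1.72, adjusted p = 0.000402) and than in 3F (-1.49, adjusted p = 0.00124). With the control index as a covariate those differences were -0.89 (adjusted p = 0.18) and -0.22 (adjusted p = 0.822). Angpt2, which can block or activate Tek by context, rose in 4F by 1.12 ± 0.19 (adjusted p = 4.74e-05), and changed by 0.86 in R1 and 0.49 in 3F, under 2-fold. With the index the change in 4F was 1.15 and did not pass (adjusted p = 0.0541). Ptprb (VE-PTP), the phosphatase that dampens Tek, was not called in any comparison without the index, with a change of 0.86 in 3F (adjusted p = 0.000498) and a difference of -0.91 between 4F and 3F at day 11 (adjusted p = 0.000907). With the index its change in 3F passed, at 1.03 (adjusted p = 0.000419). So without the index 1, 1 and 2 of the 4 genes (Angpt1, Angpt2, Angpt4, Ptprb) rose from day 0 to day 11 in R1, 3F and 4F (11.4%, 7.55% and 6.72% of all genes). Of the 4, 0 fell in any line (12.2%, 16% and 14.1%).

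Flt1, VEGF receptor 1, followed another course from the other genes: it was highest at day 5 in R1 and 3F and not in 4F. R1 levels of Flt1 were 7.10, 6.08 and 6.90 at day 0, 8.37, 8.42 and 8.30 at day 5, and 7.39, 7.04 and 7.83 at day 11. 3F levels of Flt1 were 7.82, 7.16 and 7.87 at day 0, 8.18, 8.21 and 7.96 at day 5, and 6.69, 7.22 and 8.08 at day 11. 4F levels of Flt1 were 7.16, 6.61 and 6.73 at day 0, 6.18, 6.12 and 6.84 at day 5, and 6.66, 7.07 and 7.17 at day 11. In this probe set all R1 arrays at day 5 lay above all 3F arrays, by 0.09, and these above all 4F arrays. The 3 lines overlapped at day 11. Flt1 rose in R1 by 1.67 ± 0.30 from day 0 to day 5 (3.19-fold, adjusted p = 0.000154), and at day 5 it was lower in 4F than in R1 (-1.99, 3.96-fold, adjusted p = 0.000165) and than in 3F (-1.74, 3.34-fold, adjusted p = 0.000328). At day 11 the differences of 4F were -0.45 from R1 (adjusted p = 0.321) and -0.36 from 3F (adjusted p = 0.382). The change from day 0 to day 5 differed between 4F and R1 by -2.13 ± 0.43 (adjusted p = 0.0062), and the difference between 4F and 3F, -0.95, did not pass (adjusted p = 0.284). The falls after day 5, -0.95 in R1 and -0.79 in 3F, were under 2-fold, and reached -1.15 without R1 day 11 replicate 3 and -1.16 without 3F day 11 replicate 3.

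Flt1 had 4 probe sets, and the other 3 correlated with the one read at 0.88, 0.92 and 0.80 over the 27 arrays, which share all their RNA. Of the 4, 3 passed for R1 from day 0 to day 5, with changes of 1.67, 2.98, 1.95 and 0.74 (adjusted p over 34945 probe sets 0.000197, 1.09e-06, 1.08e-05 and 0.0096, where 12.3% of all probe sets passed). This share and the other backgrounds of probe sets count calls in either direction. For 3F the 4 changes were 0.50, 2.0, 0.92 and -0.14, and only the second passed (adjusted p = 0.000123, background 10.4%), so whether Flt1 rose in 3F by day 5 depends on the probe set. That probe set read 6.38, 5.97 and 6.21 in 3F at day 0 and 8.03, 8.77 and 7.75 at day 5, without overlap. In 4F the 4 changes were -0.45, 0.11, -0.26 and -0.33, and none passed (background 6.26%). At day 5 the first 3 probe sets were lower in 4F than in R1 (-1.99, -2.92 and -1.93, background 4.2%) and than in 3F (-1.74, -2.60 and -1.70, background 5.88%). The last probe set differed by -0.87 and -0.66, under 2-fold. In the 3 probe sets other than the one read, the ranges of R1 and 3F overlapped at day 5. In all 4, the arrays of 4F lay below those of both lines on that day. For the change from day 0 to day 5, the first 3 passed for 4F against R1 (-2.13, -2.87 and -2.22, background 2.35%) and the second alone for 4F against 3F (-1.89, adjusted p = 0.036, background 2.25%). After day 5 the second fell in R1 (-1.91, background 9.36%), and the next in this order fell by 1.0, and the second also fell in 3F (-1.33, background 14.6%). Between day 0 and day 11 the second rose in R1 by 1.06 ± 0.34 (adjusted p = 0.0159, background 20.1%) and in 4F by 1.08 ± 0.34 (adjusted p = 0.0137, background 20.7%). Its change in 3F was 0.67 (adjusted p = 0.124).

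**Figure D2:**
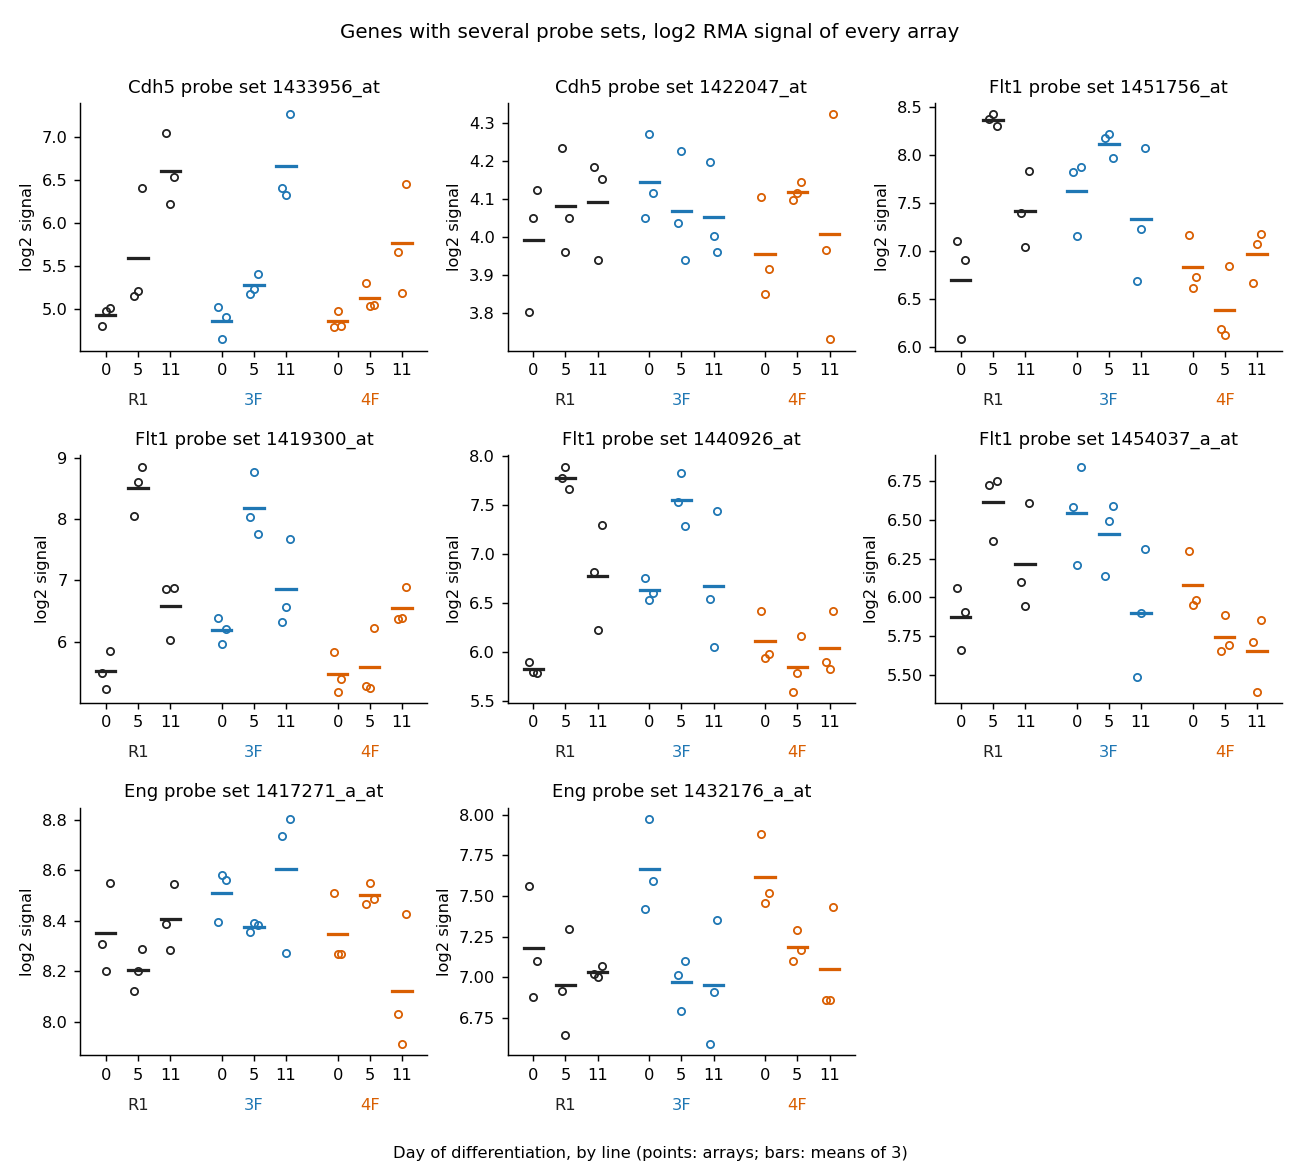
Log2 RMA level on each array for each probe set of Cdh5 (2), Flt1 (4) and Eng (2), by line and day, with bars at the mean of 3 arrays. The probe sets of Flt1 share the peak at day 5 in R1, and the second of Cdh5 stays between 3.73 and 4.32 on all arrays.

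Kdr, the main signalling receptor for VEGF-A and the marker of the mesoderm that gives vessels, was at a higher level in R1 and 3F than in 4F at day 5 and day 11. R1 levels of Kdr were 6.97, 7.24 and 6.89 at day 0, 11.44, 11.12 and 10.61 at day 5, and 10.30, 10.29 and 10.37 at day 11. 3F levels of Kdr were 6.67, 6.83 and 7.04 at day 0, 11.66, 10.82 and 11.35 at day 5, and 10.25, 10.51 and 11.32 at day 11. 4F levels of Kdr were 7.08, 6.73 and 6.33 at day 0, 7.07, 7.06 and 9.79 at day 5, and 7.97, 7.69 and 8.71 at day 11. All R1 and 3F arrays of days 5 and 11 stood above every 4F array, and in 4F at day 5 replicate 3 stood far above the other pair. Between day 0 and day 5 Kdr rose by 4.02 ± 0.47 in R1 (16.2-fold, adjusted p = 1.06e-06) and 4.43 in 3F (21.6-fold, adjusted p = 2.44e-07), and the change in 4F was 1.26 (adjusted p = 0.0603). By day 11 Kdr had risen in 4F too, by 1.41 (2.66-fold, adjusted p = 0.0187), or 1.95 with the index (adjusted p = 0.195). The change from day 0 to day 5 was lower in 4F than in R1 (-2.76, adjusted p = 0.0199) and than in 3F (-3.17, adjusted p = 0.00735). At day 11 Kdr was lower in 4F than in R1 (-2.20, adjusted p = 0.00163) and than in 3F (-2.57, adjusted p = 0.000352). With the index these differences were -1.90 (adjusted p = 0.0913) and -2.12 (adjusted p = 0.156).

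Vegfa, the ligand of Flt1 and Kdr, had the opposite order in 4F at the last day. Its levels at day 11 were 9.12, 9.40 and 10.34 in R1, 8.79, 9.85 and 10.34 in 3F, and 11.06, 10.62 and 10.42 in 4F, so all 3 arrays of 4F lay above all others. It was higher in 4F than in R1 by 1.09 (2.12-fold, adjusted p = 0.0114) and than in 3F by 1.04 (2.06-fold, adjusted p = 0.0127). With the index these differences were 1.56 (adjusted p = 0.027) and 1.77, which did not pass (adjusted p = 0.0609). At day 5 it had been lower in 4F than in R1 (-1.5, adjusted p = 0.00197) and than in 3F (-1.44, adjusted p = 0.00182, or -1.12 and 0.0562 with the index). Its rise from day 0 to day 11 was 1.71 ± 0.31 in R1, 1.0 in 3F and 2.17 in 4F. Flt4, VEGF receptor 3, was not called in any comparison and stayed between 6.23 and 7.13. Of 9 VEGF pathway genes besides Flt1, 5 rose and 0 fell in R1 from day 0 to day 11 (11.4% and 12.2% of all genes), 3 and 0 in 3F (7.55% and 16%), and 4 and 0 in 4F (6.72% and 14.1%). Besides Kdr and Vegfa, those named by the rule were Nrp1 (3.27) and Pgf (1.38) in R1, Pgf in 3F (1.48), and Nrp2 (2.19) and Vegfd (1.20) in 4F, which are co-receptors and further ligands. At day 5 4 of the 9, Vegfa, Vegfc, Kdr and Nrp1, were lower in 4F than in R1 (-1.5, -1.84, -3.08 and -4.45, 3.14% of all genes), and 0 were higher (2.31%). By day 11 2 of the 9, Kdr and the ligand Pgf (-1.26), were lower in 4F than in R1 (5.92% of all genes), and 1, Vegfa, was higher (2.39%).

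**Figure D3:**
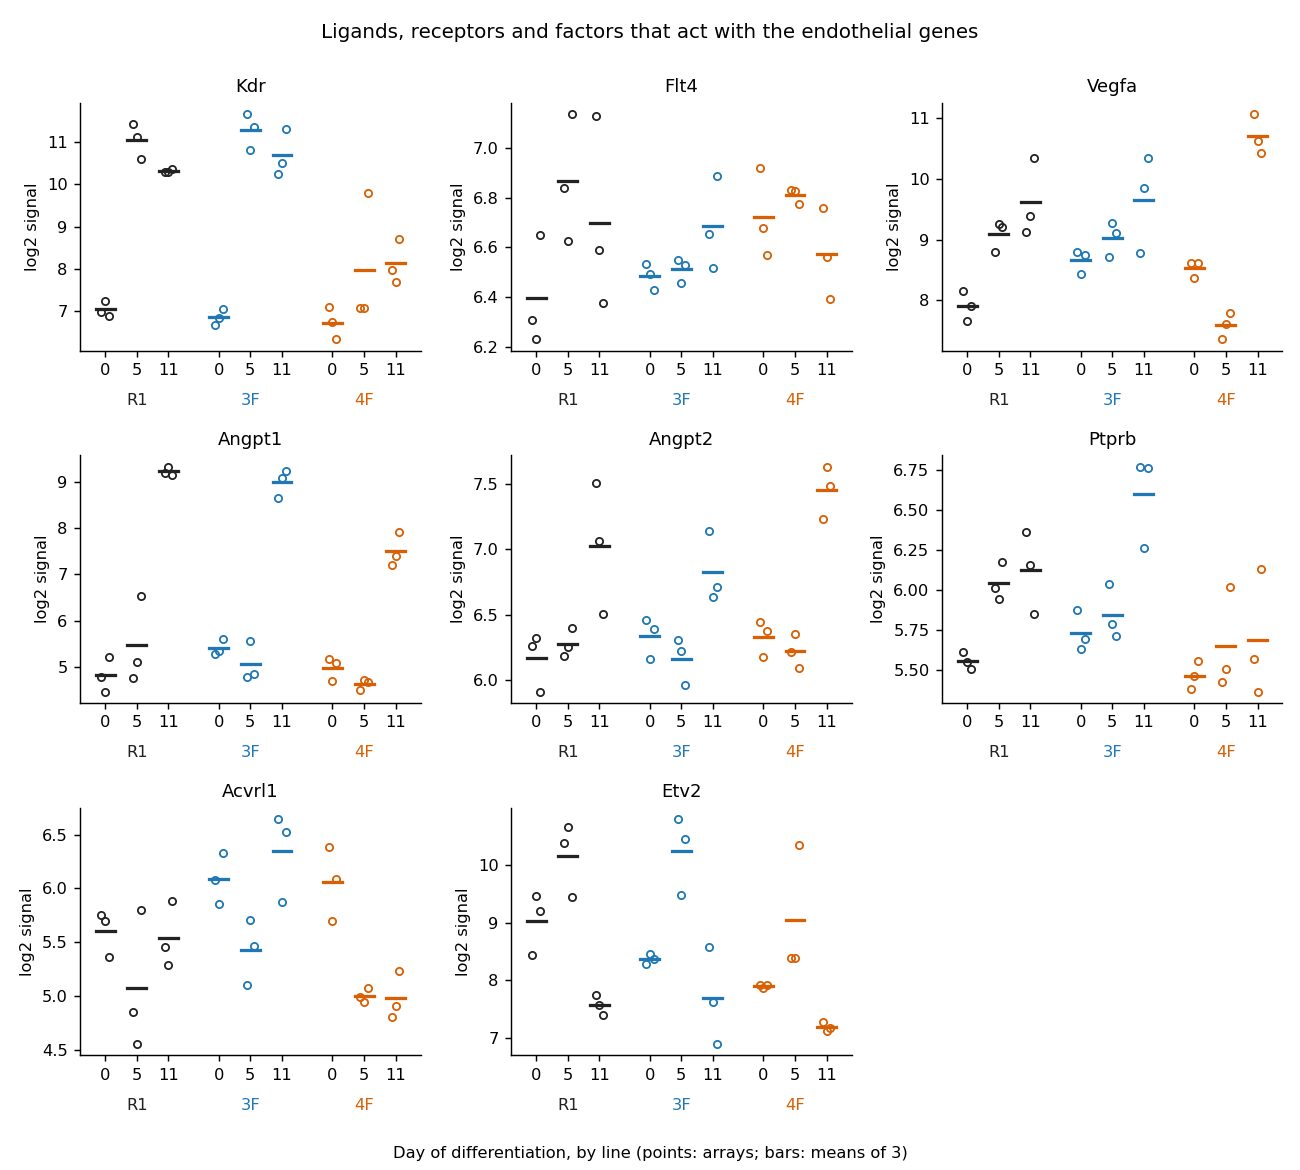
Log2 RMA level on each array of 8 partner genes (Kdr, Flt4, Vegfa, Angpt1, Angpt2, Ptprb, Acvrl1, Etv2) by line and day, with bars at the mean of 3 arrays. Kdr at day 5 lies between 10.61 and 11.66 in R1 and 3F and between 7.06 and 9.79 in 4F, and Vegfa at day 11 is highest in 4F.

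Cdh5 (VE-cadherin), the adhesion molecule of endothelial junctions, was higher at day 11 than at day 0 in all 3 lines, and passed the fold threshold in R1 and 3F. R1 levels of Cdh5 were 4.80, 4.98 and 5.01 at day 0, 5.15, 5.21 and 6.41 at day 5, and 7.05, 6.23 and 6.54 at day 11. 3F levels of Cdh5 were 5.02, 4.65 and 4.91 at day 0, 5.18, 5.24 and 5.42 at day 5, and 6.41, 6.33 and 7.27 at day 11. 4F levels of Cdh5 were 4.80, 4.97 and 4.80 at day 0, 5.30, 5.04 and 5.05 at day 5, and 5.66, 5.19 and 6.46 at day 11. All 9 arrays of day 0 lay below all 18 later arrays, and at day 11 replicate 3 of 4F stood among the R1 and 3F arrays while the other pair lay below them. Cdh5 rose by 1.67 ± 0.31 in R1 (3.19-fold, adjusted p = 8.86e-05) and 1.81 in 3F (3.49-fold, adjusted p = 3.53e-05), and the change in 4F was 0.91 (adjusted p = 0.0188), under 2-fold. That change was 1.20 without 4F day 11 replicate 2 (adjusted p = 0.0046) and 0.57 without replicate 3 (adjusted p = 0.153). The differences of 4F at day 11, -0.83 from R1 (adjusted p = 0.0491) and -0.90 from 3F (adjusted p = 0.0302), were under 2-fold, and passed without 4F day 11 replicate 3, R1 replicate 2 or 3F replicate 1 or 2 of that day (-1.24 to -1.02). The test of its change from day 0 in 4F gave -0.76 against R1 (adjusted p = 0.261) and -0.90 against 3F (adjusted p = 0.197), which did not pass. The latter was -1.24 without 4F day 11 replicate 3 (adjusted p = 0.0492). The rise from day 5 to day 11 was 1.01 in R1 (adjusted p = 0.0154, lost without day 5 replicate 1 or 2 or day 11 replicate 1 at 0.79 to 0.82) and 1.39 in 3F (adjusted p = 0.000881). A second probe set of Cdh5 read 3.73 to 4.32, never above the dim level, and correlated at 0.15 with the first.

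Cldn5 (claudin-5), the tight junction protein of vessels, was high only at day 11 in R1 and 3F. R1 levels of Cldn5 were 6.51, 7.00 and 6.64 at day 0, 6.43, 6.28 and 6.13 at day 5, and 9.91, 9.21 and 7.19 at day 11. 3F levels of Cldn5 were 6.20, 6.17 and 5.95 at day 0, 6.08, 6.30 and 5.66 at day 5, and 8.21, 8.50 and 7.95 at day 11. 4F levels of Cldn5 were 6.06, 6.24 and 6.19 at day 0, 6.66, 6.50 and 6.31 at day 5, and 5.87, 5.81 and 5.97 at day 11. The 6 arrays of R1 and 3F at day 11 lay above the other 21 of the series, and R1 replicate 3, more than 2 units below its pair, was the lowest of them. Cldn5 rose by 2.06 ± 0.38 in R1 (4.16-fold, adjusted p = 0.000106) and 2.12 in 3F (4.33-fold, adjusted p = 7.49e-05), and the change in 4F was -0.29 (adjusted p = 0.593). At day 11 it was lower in 4F than in R1 (-2.89, 7.42-fold, adjusted p = 1.49e-05) and than in 3F (-2.34, 5.06-fold, adjusted p = 0.000108). The change from day 0 differed by -2.34 ± 0.54 from R1 (adjusted p = 0.00593) and by -2.40 from 3F (adjusted p = 0.0068). Between 3F and R1 the difference at day 11 was -0.55 (adjusted p = 0.429), and -1.34 without R1 day 11 replicate 3 (adjusted p = 0.000305). That array also had the lowest marker means of its group for macrophages (7.62 against 9.67 and 9.94), blood (6.60 against 7.61 and 7.70) and erythroid cells (7.01 against 9.11 and 8.84). Their part in the result was not tested.

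Pecam1 (CD31), an adhesion molecule of endothelial contacts that mouse stem cells also carry, had its highest group mean in undifferentiated R1 cells. R1 levels of Pecam1 were 6.27, 6.34 and 5.83 at day 0, 5.13, 5.31 and 6.66 at day 5, and 5.56, 5.57 and 5.48 at day 11. 3F levels of Pecam1 were 5.33, 5.18 and 5.02 at day 0, 5.55, 6.63 and 5.63 at day 5, and 6.59, 5.59 and 5.70 at day 11. 4F levels of Pecam1 were 5.77, 5.97 and 5.63 at day 0, 5.46, 5.19 and 5.52 at day 5, and 5.24, 5.10 and 5.23 at day 11. In 3F all later arrays lay above those of day 0, in 4F all later arrays lay below, and in R1 the arrays of day 11 lay below those of day 0. No change within a line passed: 0.78 in 3F (adjusted p = 0.0428, under 2-fold), -0.60 in 4F (adjusted p = 0.129) and -0.61 in R1 (adjusted p = 0.122). The change from day 0 to day 11 differed between 4F and 3F by -1.38 ± 0.44 (2.61-fold, adjusted p = 0.0493), a call that was lost without 10 of the 12 arrays (adjusted p up to 0.125) and with the replicate number as a block (adjusted p = 0.0589). It was also lost with cyclic loess, with quantile normalization and with all probe sets tested. The 3 highest Pecam1 arrays, R1 day 5 replicate 3, 3F day 5 replicate 2 and 3F day 11 replicate 1, each stood apart from its pair and were the only arrays above the dim level.

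Of 21 other genes of endothelial junctions and surface, 5 rose and 1 fell in R1 from day 0 to day 11 (11.4% and 12.2% of all genes), 7 rose and 1 fell in 3F (7.55% and 16%), and 2 rose and 1 fell in 4F (6.72% and 14.1%). The adhesion molecule Icam2 rose by 2.54 in R1 and 2.74 in 3F, and Calcrl, a receptor for adrenomedullin, by 2.47, 2.44 and 1.83 in R1, 3F and 4F. Its co-receptor Ramp2 rose by 2.56 in R1 and 1.14 in 4F, and the surface lectin-like receptor Cd93 by 2.58 in 3F. The junction molecule Jam2 fell by 4.17, 3.77 and 1.91. At day 11 7 of the 21 were lower in 4F than in R1 (5.92% of all genes) and 1, Jam2, higher by 2.71 (2.39%), and 7 were lower than in 3F (4.91%) and Jam2 higher by 2.58 (5.12%). The median difference of the 21 was -0.81 from R1 and -0.85 from 3F, beside -0.10 and -0.12 over all genes. With the index 3 were lower and 1 higher than R1, and 2 lower and 0 higher than 3F. In these 2 fits 5.66% and 6.07% of all genes passed in either direction. The 4F arrays at day 11 also had higher levels of pluripotent markers, which is given with the markers of other cells further on.

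Cd34, a sialomucin of endothelial and blood progenitors, had the widest range of the 9 genes, with an SD of 1.5 over the 9 group means. R1 levels of Cd34 were 5.36, 5.63 and 4.74 at day 0, 4.10, 4.18 and 4.89 at day 5, and 8.0, 8.19 and 7.73 at day 11. 3F levels of Cd34 were 5.55, 6.07 and 5.71 at day 0, 4.62, 3.82 and 4.30 at day 5, and 7.86, 8.74 and 9.66 at day 11. 4F levels of Cd34 were 5.71, 5.98 and 5.79 at day 0, 6.51, 6.31 and 5.02 at day 5, and 4.92, 5.41 and 6.35 at day 11. In R1 and 3F the lowest group mean was at day 5 and the highest at day 11, with all 6 arrays of day 11 above all others, while in 4F the 3 days overlapped. Cd34 rose by 2.73 ± 0.41 in R1 (6.63-fold, adjusted p = 8.54e-06) and 2.98 in 3F (7.87-fold, adjusted p = 2.47e-06) from day 0 to day 11, and by 3.58 (12-fold) and 4.51 (22.7-fold, adjusted p = 2.24e-08) from day 5. The changes from day 0 to day 5 were -0.86 in R1 (adjusted p = 0.113) and -1.53 in 3F, where it fell (2.89-fold, adjusted p = 0.00614), and in 4F 0.12. Cd34 was above the dim level on 7 of 27 arrays. The fall in 3F lay wholly below that level, as did all R1 and 3F arrays of day 5, which limits the comparisons of day 5. At day 5 Cd34 was higher in 4F than in R1 by 1.56 (2.94-fold, adjusted p = 0.0132, lost without any of 4 of the 6 arrays at 1.28 to 1.45) and than in 3F by 1.70 (3.25-fold, adjusted p = 0.00519). At day 11 the order was reversed, and it was lower in 4F than in R1 (-2.41, 5.32-fold, adjusted p = 0.000187) and than in 3F (-3.19, 9.14-fold, adjusted p = 7.39e-06). The change from day 0 to day 11 differed by -2.99 ± 0.58 from R1 (adjusted p = 0.00168) and by -3.24 from 3F (adjusted p = 0.0011). For the change from day 0 to day 5, the difference between 4F and 3F, 1.65, did not pass (adjusted p = 0.127), and it was 2.11 when 4F day 5 replicate 3 was left out (adjusted p = 0.0196).

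Emcn (endomucin), the other sialomucin, moved in the same groups but by less than 2-fold, and was above the dim level on 0 arrays. R1 levels of Emcn were 4.11, 4.00 and 4.10 at day 0, 4.18, 3.95 and 4.35 at day 5, and 5.17, 5.17 and 4.60 at day 11. 3F levels of Emcn were 4.14, 4.14 and 3.81 at day 0, 4.10, 3.78 and 4.09 at day 5, and 5.01, 4.97 and 4.70 at day 11. 4F levels of Emcn were 4.01, 3.83 and 4.05 at day 0, 3.90, 4.26 and 4.00 at day 5, and 4.10, 4.20 and 4.27 at day 11. The 6 arrays of R1 and 3F at day 11 were the 6 highest of the 27. The changes from day 0 were 0.91 ± 0.15 in R1 (adjusted p = 3.39e-05), 0.86 in 3F (adjusted p = 6.24e-05) and 0.23 in 4F (adjusted p = 0.251), and the first was 1.10 without R1 day 11 replicate 3. At day 11 the differences of 4F were -0.79 from R1 (adjusted p = 0.000642) and -0.70 from 3F (adjusted p = 0.00149).

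Eng (endoglin), the co-receptor of TGF-beta family ligands, was the steadiest of the 9. All 27 arrays lay between 7.91 and 8.80, the group means ran from 8.12 in 4F at day 11 to 8.60 in 3F at day 11, and each group overlapped the next in order. Differences under 2-fold passed in p between 4F and 3F at day 11 (-0.48 ± 0.14, adjusted p = 0.0134) and in 4F from day 5 to day 11 (-0.38, adjusted p = 0.0389). A second Eng probe set read 6.59 to 7.97, correlated at 0.33 with the first and was never called, with changes of -0.71 to 0.48. Acvrl1 (ALK1), the receptor with which Eng works in endothelium, fell in 4F by 1.07 from day 0 to day 11 (2.10-fold, adjusted p = 0.00186). With the index that change was 0.73 (adjusted p = 0.196), and Acvrl1 then rose in 4F from day 5 to day 11 by 1.38 (adjusted p = 0.00394). At day 11 it was lower in 4F than in 3F (-1.36, adjusted p = 0.000516), a difference of 0.13 with the index (adjusted p = 0.84). Of 12 genes of the endoglin and BMP9 pathway, 5 rose and 0 fell in R1 from day 0 to day 11 (11.4% and 12.2% of all genes), 2 rose and 3 fell in 3F (7.55% and 16%), and 3 rose and 1 fell in 4F (6.72% and 14.1%). The signal transducer Smad5 rose by 2.24, 1.73 and 1.25 in R1, 3F and 4F, and the inhibitory Smad6 by 2.82, 3.02 and 2.53. Bmpr2, a BMP receptor, rose by 1.41 in R1 and 1.01 in 4F and Tgfbr2, a TGF-beta receptor, by 2.72 in R1, while in 3F the inhibitory Smad7 fell by 1.12 and the BMP target Id1 by 1.24.

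Of 17 transcription factors of endothelium and its precursors, 11 rose and 2 fell in R1 from day 0 to day 11 (11.4% and 12.2% of all genes), 9 rose and 1 fell in 3F (7.55% and 16%), and 4 rose and 1 fell in 4F (6.72% and 14.1%). The SOX factor Sox17 rose by 4.65, 4.32 and 2.91 in R1, 3F and 4F, and Mef2c by 3.01 in R1 and 2.66 in 3F. Ets1, an ETS factor, rose by 3.15 in R1 and 1.93 in 4F, Foxc1 by 1.51 in 4F, and Tal1, a factor shared with blood, by 2.52 in 3F. Klf2, a flow-responsive factor of vessels, fell by 2.15, 2.35 and 2.13. At day 11 5 of the 17 were lower in 4F than in R1 (5.92% of all genes) and 6 than in 3F (4.91%), and 0 were higher (2.39% and 5.12%), with medians of -0.75 and -0.51. With the index none of them passed in either comparison, where 5.66% and 6.07% of all genes passed in either direction. Etv2, the ETS factor at the head of the endothelial program, had levels at day 5 of 10.38, 10.65 and 9.44 in R1, 10.79, 9.48 and 10.45 in 3F, and 8.40, 8.39 and 10.34 in 4F. Replicate 3 of 4F at day 5 stood apart from its pair in Etv2 as it did in Kdr, and lay among the R1 and 3F arrays. Etv2 rose from day 0 to day 5 in 3F by 1.87 (adjusted p = 0.00232), with changes of 1.13 in R1 (adjusted p = 0.0516) and 1.14 in 4F (adjusted p = 0.0713), and fell from day 5 to day 11 by 2.58, 2.54 and 1.85 in R1, 3F and 4F.

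Over the 9 group means, correlations among Tek, Tie1, Cd34, Cldn5, Cdh5 and Emcn ran from 0.58 to 0.95, which describes 9 means of 3 lines and is no test. Flt1 correlated with the others at -0.28 to 0.21, and Pecam1 at -0.01 to 0.38. Among 1277 genes whose group means had an SD of at least 1, the most alike in course were Col6a2, Fcgrt and Srpx2 for Tek (0.95 to 0.955), Cxcl12, Stom and Il1r1 for Cd34 (0.956 to 0.967), and Upk3b, Colec10 and Fmod for Cldn5 (0.95 to 0.959). For Cdh5 they were Ednrb, Creb3l1 and Mfap4 (0.987 to 0.994), for Emcn Tcf21, Tmem255a and Islr (0.988 to 0.991), and for Tie1 Nepn, Ntsr1 and the embryonic globin Hba-x (0.949 to 0.958). Flt1 was most like Abtb2, Kitl and Wnt5a (0.886 to 0.93). The highest were lower for Pecam1 (Eif2s3y, Uty and Dpys, up to 0.509) and for Eng (C1qtnf2, Galc and Ang, up to 0.677).

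In the order of group means, 3F and R1 at day 11 were the highest groups of Tek, Tie1, Cd34, Cldn5, Cdh5 and Emcn, and their ranges overlapped for each of these except Tie1, where 3F lay above R1. The next group in order lay wholly below them for Tek (3F at day 0), Cd34 (4F at day 5), Cldn5 (R1 at day 0) and Emcn (4F at day 11). In Cdh5 the order went on without a gap through 4F at day 11 and the 3 groups of day 5, and the only gap was between 4F at day 5 and R1 at day 0. For Flt1, in the probe set read, R1 at day 5 stood above 3F at day 5, and both above the rest. The rest overlapped in sequence from 3F at day 0 to 4F at day 5. For Pecam1 and Eng no neighbours in the order were apart.

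The results at day 11 were then set beside the control index. Adding it to the fit on all 27 arrays removed its slope within the 9 groups, and 2965 of 18193 genes (16.3%) had such a slope at an adjusted p under 0.05. Among the 9 genes, only Tek had one, at -2.86 ± 0.57 per unit of index (adjusted p = 0.00246), with Cdh5 at -1.03 ± 0.38 (adjusted p = 0.0706) and Cldn5 at 1.06 (adjusted p = 0.168). With the index, Cldn5 alone was lower in 4F than in R1 (1 of 9, where 5.66% of all genes passed in either direction), at -3.69 ± 0.52 (adjusted p = 0.000209). Tek was then at -0.80 ± 0.59 (adjusted p = 0.452), Cd34 at -1.58 ± 0.56 (adjusted p = 0.0792), and Emcn at -0.82 ± 0.23 (adjusted p = 0.0285). In 4F against 3F, 2 of 9 were called (background 6.07%), Cldn5 at -3.55 ± 0.68 (adjusted p = 0.00499) and Tie1 at -1.35 ± 0.40 (adjusted p = 0.0438), while Tek stood at -0.26 ± 0.77 (adjusted p = 0.858) and Cd34 at -1.92 ± 0.73 (adjusted p = 0.11). In 3F against R1 limma called 0 with the index (background 1.4%), and 1 had an unadjusted p under 0.05.

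**Figure D4:**
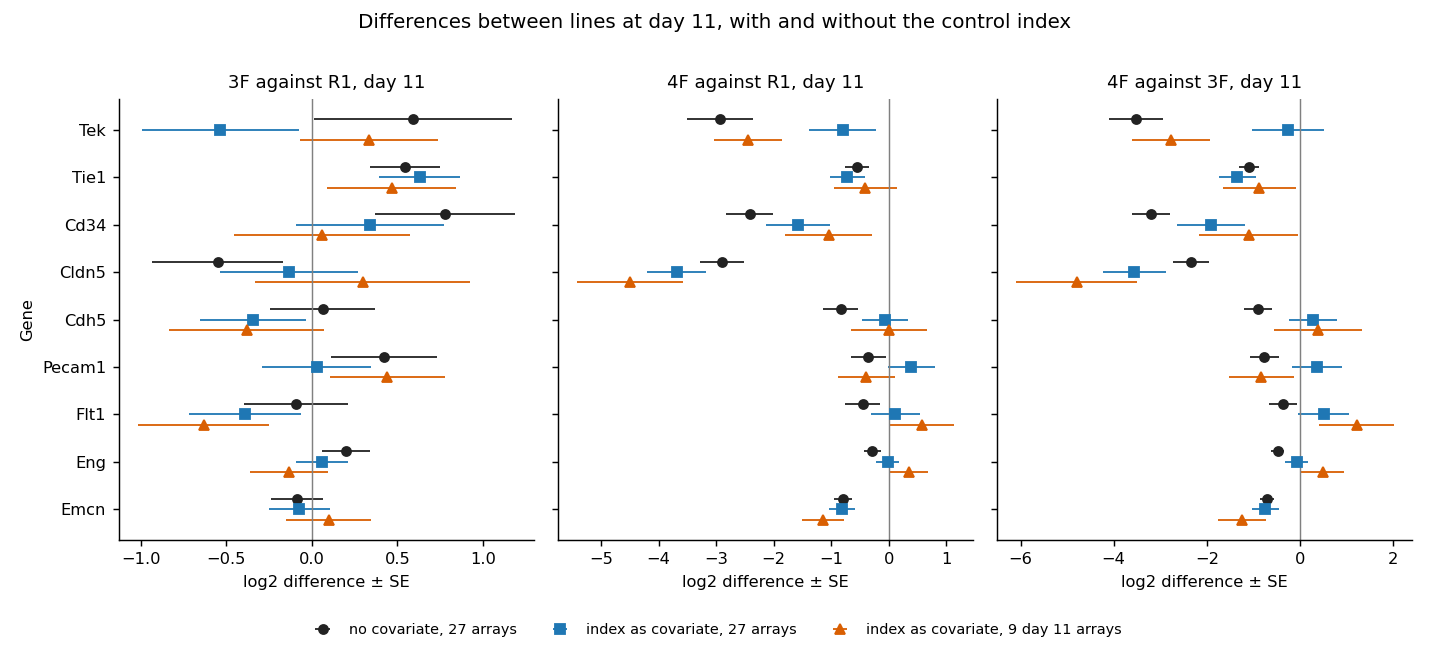
Log2 difference between lines at day 11 (points) with its standard error (bars) for each of the 9 genes, in 3 panels for 3F against R1, 4F against R1 and 4F against 3F. Markers in each panel give the fit without a covariate on 27 arrays, with the index on 27 arrays, and with the index on the 9 arrays of day 11. Cldn5 keeps a negative difference for 4F in all 3 fits, while that of Tek moves from -2.94 to -0.80 to -2.44 against R1.

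Changes within a line also moved with the index. The backgrounds given here count genes called in either direction, unlike the higher and lower shares given without the index. In R1 from day 0 to day 11 5 of 9 rose (background 27.3%), the 4 without the index and Flt1 at 1.10 ± 0.35 (adjusted p = 0.0125), and in 3F 6 of 9 rose (background 25.1%), the 5 without it and Pecam1 at 1.24 ± 0.33 (adjusted p = 0.00388). In 4F Cdh5 rose by 2.34 ± 0.59 (adjusted p = 0.00573, 1 of 9, background 23.4%), and Tek changed sign, from -1.56 to 2.39 ± 0.89 (adjusted p = 0.0518). From day 5 to day 11 Tek and Cdh5 rose in 4F with the index (2 of 9, background 18.8%), by 2.84 ± 0.73 (adjusted p = 0.00699) and 1.75 ± 0.49 (adjusted p = 0.0124), where the change of Tek without it was -0.23. Over that interval 4 of 9 passed in R1 (13.1%) and 5 of 9 in 3F (18.4%). The 2 counts in 4F were near or below the share of all genes. The index of 4F ran from 1.21 to 1.43 at day 0, 1.55 to 1.71 at day 5 and 2.44 to 2.89 at day 11. These ranges do not meet, so within 4F the index and the day cannot be told apart. For the change from day 0 to day 11, Cldn5 was lower in 4F than in R1 (-3.29, adjusted p = 0.0142, 1 of 9, background 1.35%). Cldn5 and Tie1 were lower than in 3F (-3.39 and -1.33, adjusted p = 0.00784 and 0.0491, 2 of 9, background 6.01%). Pecam1 was higher in 3F than in R1 (1.35, adjusted p = 0.0411, 1 of 9, background 4%).

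On the 9 arrays of day 11 alone, a fit without the index made the same counts, 3 lower than R1 (background in either direction 6.18%) and 4 lower than 3F (background in either direction 7.91%), with Tek at -2.94 ± 0.31 (adjusted p = 0.00159) and -3.53 ± 0.31 (adjusted p = 0.000372). With the index on these 9 arrays limma called 0 of 9 in 4F against R1 (0.0385% of all genes), 0 in 4F against 3F (0%) and 0 in 3F against R1 (0.044%), with 3, 3 and 0 at an unadjusted p under 0.05. Tek was then at -2.44 ± 0.59 against R1 (adjusted p = 0.272) and -2.78 ± 0.83 against 3F (adjusted p = 0.433), and Cldn5 at -4.50 ± 0.92 (adjusted p = 0.199) and -4.80 ± 1.30 (adjusted p = 0.389). Cd34 was at -1.04 ± 0.76 (adjusted p = 0.828) and -1.10 ± 1.06 (adjusted p = 0.833), and Cdh5 at 0.01 against R1. The difference of Tek thus depended on which arrays set its slope, that of Cldn5 was larger with the index in both fits, and that of Cd34 was smaller with it in both. The ranges of index in 4F and the other lines do not meet at day 11, so the fits carry the slope beyond the values measured in each line.

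**Figure D5:**
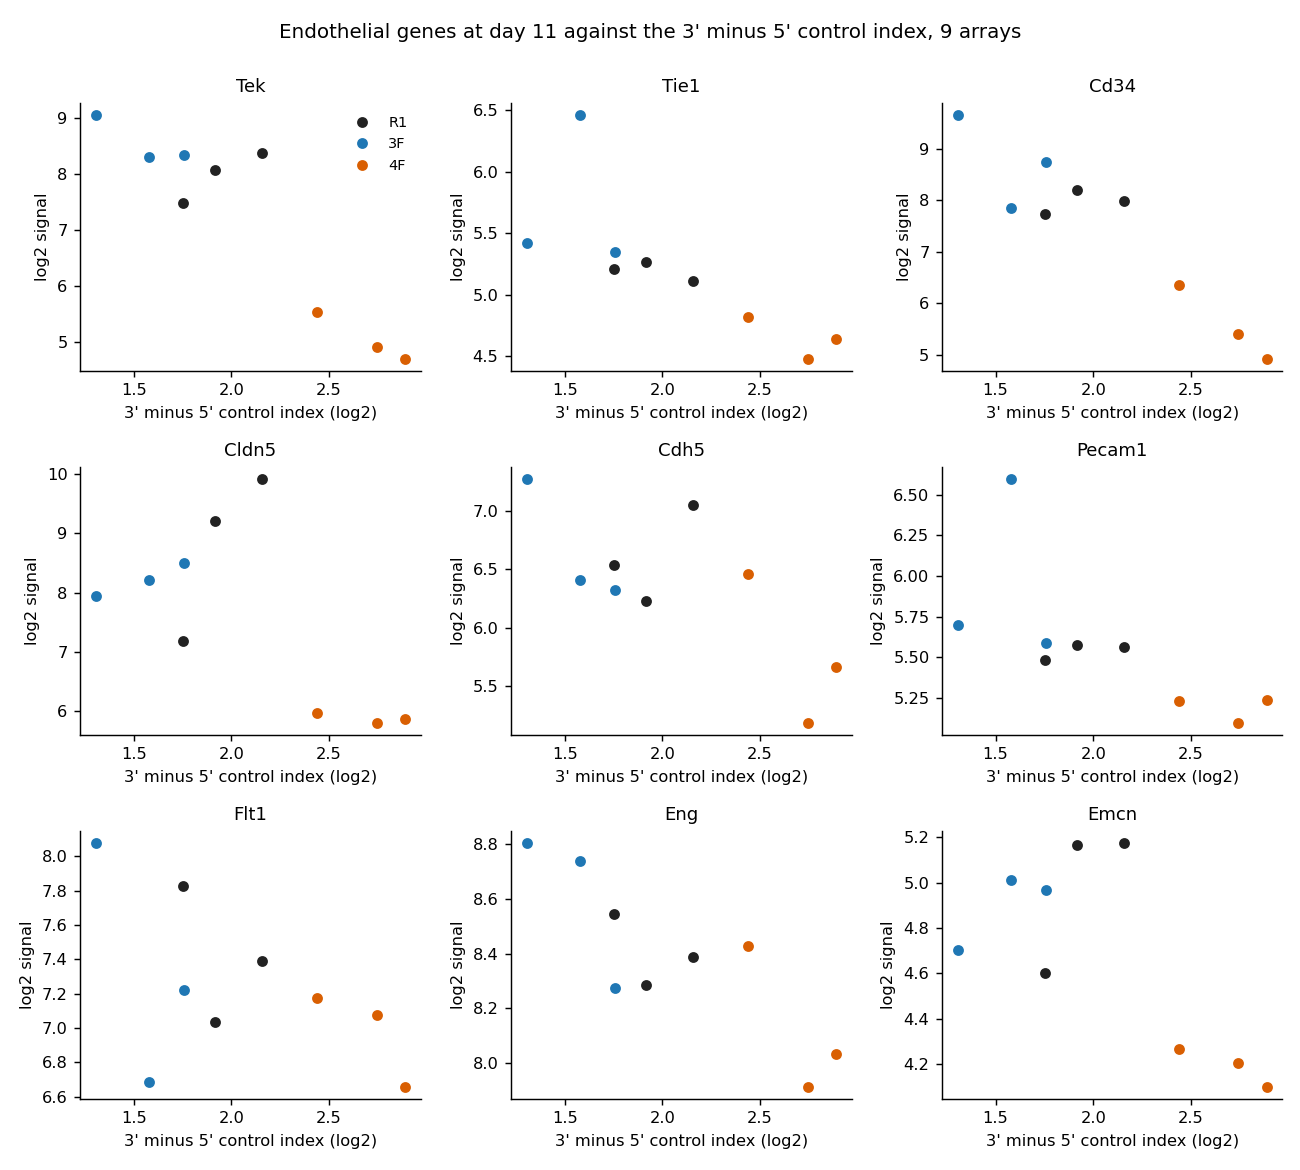
Log2 RMA level of each of the 9 genes against the 3' minus 5' control index on the 9 arrays of day 11, coloured by line. The 3 arrays of 4F sit at an index of 2.44 to 2.89, to the right of all others, with Cldn5 there between 5.81 and 5.97.

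Some arrays stood high in many of the 9 genes at once. In 4F at day 11 replicate 3, which had the lowest index of its group (2.44), was the highest array for 8 of the 9 genes, against 47.2% of all genes. In R1 at day 5 replicate 3, with the lowest index of its group (1.28), was the highest for 6 of 9 (36.3% of all genes). Its mean over erythroid markers was 7.77 against 5.98 and 6.07, over feeder fibroblast markers 7.85 against 6.06 and 6.43, and over pluripotent markers 8.81 against 10.87 and 10.13. In 3F replicate 2 at day 5 and replicate 3 at day 11, again of the lowest index in their groups, were highest for 5 of 9 each (33% and 38.2%), while the array of lowest index in R1 at day 11, replicate 3, was highest for 2 of 9 (35.2%). The arrays of lowest index in the other 4 groups, R1, 3F and 4F replicate 1 at day 0 and 4F replicate 2 at day 5, were highest for 3 of 9 each (44.2%, 32.2%, 36.3% and 28.7%). In 4F at day 11 replicate 3 also had the highest feeder fibroblast mean, 10.36 against 9.09 and 9.22. The part of the index and of other cells in these arrays was not tested.

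Markers of other cell types differed between the lines at day 11 too. The mean over 7 pluripotent markers was 10.46 in 4F (10.01 to 10.91) against 7.97 in R1 (7.09 to 8.52) and 7.23 in 3F (6.95 to 7.78), with 7, 7 and 4 of the 7 above the dim level. The mean over 8 feeder fibroblast markers was 9.56 in 4F (9.09 to 10.36) and 11.23 in R1 (10.94 to 11.50). In 3F it was 11.42 (11.11 to 11.74). At day 0, with feeders present, it was 10.17 in 4F, 9.66 in R1 and 11.07 in 3F. From day 0 to day 11 these markers went both ways. In R1 5 of the 8 rose and 3 fell (11.4% and 12.2% of all genes). In 3F 4 rose and 3 fell (7.55% and 16%), and in 4F 2 rose and 4 fell (6.72% and 14.1%). Thy1 changed by -4.68 in 3F and -4.01 in 4F, and Col3a1 by 4.54 in R1 and 3.50 in 4F. Their mean is therefore no measure of how many feeder cells were present. The mean over 7 blood markers was 6.36 in 4F (6.28 to 6.46), 7.30 in R1 (6.60 to 7.70) and 6.67 in 3F (6.48 to 6.77). That over 6 macrophage markers was 6.66, 9.08 and 7.11, and that over 7 erythroid markers 7.48 (7.09 to 7.74), 8.32 (7.01 to 9.11) and 9.03 (8.65 to 9.26). The means over 6 pericyte and smooth muscle markers overlapped, at 9.72 to 10.39 in 4F, 10.40 to 10.45 in R1 and 10.04 to 10.65 in 3F. The part of these cells in the levels of the 9 genes was not tested.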

How the data were processed

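Per the labels' protocols, column-purified total RNA was made into biotinylated cRNA. The deposited values are log2 signals that the authors made by RMA, per the submitters' processing notes, with no version given, and were used as they stood. Of 45101 probe sets, 34945 had 1 gene symbol in the array annotation, and each of 18193 genes was read by its brightest probe set. All 27 arrays and all genes entered a linear model of the 9 group means in limma 3.58.1 (R 4.3.3), with Benjamini-Hochberg adjustment over all genes in each of 24 comparisons, and was tested on simulated data. Figures were drawn with matplotlib 3.10.9 and tables made with pandas 2.3.3 and numpy 2.4.6 in Python 3.11.15. The 9 genes and the lists were chosen with earlier results of these data known. Of each list the text names up to 4 called genes of largest change per line from day 0 to day 11, besides 8 partner genes and the 3 genes most alike to each member. Other genes, such as Vegfc, Nrp1 and Jam2 in comparisons of lines, were named after their values were seen. The 3' minus 5' index is the mean log2 difference of the Actb and Gapdh control probe sets. Same-number replicates deviated together (all 3 correlations over 0.1) in 4F from day 5 to day 11, in 4F against R1 at day 0 and in 3F against R1 at day 11, and the labels state no pairing, so the fit used no block. Alternatives were the index, other normalizations (cyclic loess, quantile), a filter on dim genes, all or averaged probe sets, only the compared arrays, a replicate block and each array left out.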

Additional observations from a re-analysis of the deposited data

Results flagged for a closer look

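In 9 cases the change from day 0 differed between lines by the direct test of limma. From day 0 to day 5, the change of Flt1 differed by -2.13 between 4F and R1, while the test of 4F against 3F did not pass. From day 0 to day 11, the changes in 4F and R1 differed by -3.27 for Tek, -2.99 for Cd34 and -2.34 for Cldn5. Over the same days, those in 4F and 3F differed by -3.05 for Tek, -1.13 for Tie1, -3.24 for Cd34, -2.40 for Cldn5 and -1.38 for Pecam1. With the control index as a covariate, Flt1 passed to day 5 (-2.05, adjusted p = 0.00412), and to day 11 Cldn5 passed in both comparisons and Tie1 in that of 4F against 3F, while Tek, Cd34 and Pecam1 did not. The difference of Tie1 did not pass with only the compared arrays (adjusted p = 0.0969), and was -0.97 with cyclic loess and -0.77 without 3F day 11 replicate 1, under 2-fold. That of Cldn5 between 4F and R1 did not pass with only the compared arrays (adjusted p = 0.0512).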

How the results depend on the processing

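The counts of the 9 genes called in the 24 comparisons stayed within 1.5 times of the reported ones with a filter on dim genes, with probe sets averaged per gene, with all probe sets tested, with quantile normalization and with the replicate block. The replicate block ended 1 call, that of Pecam1 in the change from day 0 to day 11 of 4F against 3F (-1.38, adjusted p = 0.0589). This Pecam1 call was also lost with quantile normalization (adjusted p = 0.0543), with all probe sets tested (adjusted p = 0.0519) and with cyclic loess (adjusted p = 0.0679). With cyclic loess, 3 genes were called in that comparison instead of 5. With only the compared arrays, the counts were 2 in R1 from day 5 to day 11, 2 in 3F and 1 in 4F from day 0 to day 5, 1 in 4F against R1 at day 5, and 2 in 4F against 3F for the change from day 0 to day 5. With the index the counts were 2 in 3F from day 0 to day 5, 2 in 4F from day 5 to day 11, 1 in 3F against R1 at day 0, 1 in 4F against R1 and 2 in 4F against 3F at day 11. For changes they were then 1 in 4F against 3F to day 5, and to day 11 1 in 3F against R1, 1 in 4F against R1 and 2 in 4F against 3F. With the index on the arrays of day 11 alone, 0 were called in 4F against R1 and 0 in 4F against 3F, with 3 and 3 at an unadjusted p under 0.05. Tek in 4F turned its direction with the index, to 2.39 from day 0 to day 11 and 2.84 from day 5 to day 11. The cause was not tested.

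With each array left out in turn, the counts ran from 1 to 2 in R1 from day 0 to day 5, from 2 to 6 in R1 from day 5 to day 11, and in 3F from 1 to 2 from day 0 to day 5 and from 3 to 5 from day 0 to day 11. They ran from 0 to 1 in 4F from day 0 to day 11, in 3F against R1 at day 0 and in 3F against R1 at day 11, and from 1 to 2 in 4F against R1 at day 5. For the changes to day 5 they ran from 0 to 1 in 3F against R1 and in 4F against 3F, and for those to day 11 from 0 to 3 in 3F against R1 and from 3 to 5 in 4F against 3F.

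Among single genes, Cdh5 fell under 2-fold with the mean of its probe sets, at 0.89 in R1 and 0.86 in 3F from day 0 to day 11. In R1 from day 5 to day 11 the called genes changed while the count did not: Cdh5 was at 0.51 with averaged probe sets and 0.93 with quantile normalization, and Flt1 was then called lower (-1.07, adjusted p = 0.00229, and -1.01, adjusted p = 0.012). The filter on dim genes left 7 of the 9, without Tie1 and Emcn. Tie1 in 4F against 3F at day 11 was at -0.94 with cyclic loess and -0.99 with quantile normalization. Signals at or below the dim level limit Tie1, Emcn, and most arrays of Cdh5, Pecam1, Cd34 and Cldn5. Above that level were 7 of 27 arrays for Cd34, 11 for Cldn5 and 14 for Tek. No detection calls were used here, 3 arrays a group give wide errors, and 1 line of each origin was measured.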

Other observations

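Of 11 genes of arterial and venous identity, 7 rose in R1 from day 0 to day 11 (11.4% of all genes), 4 in 3F (7.55%) and 5 in 4F (6.72%), and 0 fell in any line (12.2%, 16% and 14.1%). The apelin receptor Aplnr rose by 5.50 in R1 (45.4-fold, adjusted p = 8.27e-05) and 5.34 in 3F (40.6-fold, adjusted p = 0.000111), and at day 11 was lower in 4F than in R1 (-4.26, adjusted p = 0.0031) and than in 3F (-3.89). The venous factor Nr2f2 rose in all 3 lines, by 2.68, 1.75 and 1.72 in R1, 3F and 4F. The Notch target Hey2 rose by 2.08 in R1 and 1.42 in 4F, the gap junction gene Gja4 by 2.09 and the venous receptor Ephb4 by 1.04 in 3F, and the arterial ligand Efnb2 by 1.25 and Nrp2 by 2.19 in 4F. Gja4 was also lower in 4F than in 3F at day 11 (-2.05). Of 4 lymphatic genes (Prox1, Lyve1, Pdpn, Flt4), limma called 0 in R1, 3F or 4F from day 0 to day 11, beside the shares of all genes given above. Of these 4, 2, 1 and 0 had an unadjusted p under 0.05. At day 11 limma called 0 in 4F against R1 (2.39% of all genes higher and 5.92% lower) and 0 against 3F (5.12% and 4.91%). There 3 and 1 had an unadjusted p under 0.05.

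Mean levels over 5 platelet markers at day 11 were 7.79 in R1, 6.87 in 3F and 6.49 in 4F. Of 5 trophoblast markers, 2 were matched on the array.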
